A study of Saccharomyces cerevisiae with 4 samples.

Results

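The genes described here encode the enzymes that make and recover guanine nucleotides in budding yeast. They are IMD2, IMD3, IMD4, GUA1, GUK1, HPT1, YNK1 and GUD1, chosen by name and not by measured values, although IMD2 was already known to be higher in these data when the set was drawn up. All 8 were measured, each with 1 probe set, among 5449 measured genes of Saccharomyces cerevisiae. RNA came from 4 strains, with 1 Affymetrix array each. The wild type was the laboratory strain BY4742, of mating type alpha, and the other strains were deletions of SIR2, SIR3 or SIR4, written sir2Δ, sir3Δ and sir4Δ below. Per the labels the deletions were built with KanMX, so its effect and that of losing the SIR gene cannot be told apart. All 4 strains grew at 30 °C in 5 ml of the rich glucose medium YPD until exponential growth, with an optical reading of 0.7. The labels name neither further alleles nor the number of clones per deletion.

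Guanine nucleotides are made from IMP, the common product of purine synthesis. IMP dehydrogenase oxidises IMP to XMP, GMP synthase turns XMP into GMP, and kinases add phosphates to give GDP and GTP. Budding yeast has several IMP dehydrogenase genes, of which IMD2 lies near a chromosome end and is induced when GTP runs short, for example under mycophenolic acid, a drug that blocks the enzyme. When GTP is plentiful, RNA polymerase II starts IMD2 transcription upstream, at a G, and the transcript is ended early by the NRD1, NAB3 and SEN1 pathway. When GTP is low, it starts downstream and makes the full mRNA. Sir2, which removes acetyl groups from histones with the help of NAD, forms together with the nucleosome-binding proteins Sir3 and Sir4 the silent chromatin of chromosome ends and of the silent mating loci. The title of the series names GTP and chromatin near chromosome ends, and its design asks which genes the Sir complex represses.

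The values are log2 levels per probe set, and differences are log2 differences of a deletion from wild type, on which 1 unit is a 2-fold change. With 1 array per strain there was no spread between replicates, no test could be run and no difference could be checked on a repeat array. The 3 differences of a gene share the wild-type array, so an error on that array would enter all of them. Genes are called higher or lower at a 2-fold difference. The background level of an array, taken from probe sets of another yeast, was between 4.28 and 4.39. In these bulk cultures, more RNA per cell and more cells with the RNA cannot be told apart.

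The labels of the deletions were checked on the deleted genes. SIR2 gave 9.96 in wild type and 3.68 in its own deletion, SIR3 9.32 and 4.51, and SIR4 9.98 and 3.05. LYS2, which is deleted in the BY4742 background, was at 4.32 in wild type, and URA3, deleted as well, was at 3.16. LEU2 and HIS3, also inactivated in that background, gave 6.68 and 11.41. Of 4 markers of alpha cells, MF(ALPHA)1, MF(ALPHA)2, STE3 and SAG1, all 4 lay between 12.72 and 14.10 in wild type and between 3.21 and 9.10 in the deletions, with MF(ALPHA)1 below background in each deletion. None of the 4 markers of a cells, MFA1, MFA2, STE2 and BAR1, differed 2-fold in any deletion. They lay between 5.33 and 6.78 in wild type and between 4.86 and 6.73 in the deletions. The fall of the alpha markers thus moved with the deletions in the same arrays as the IMD2 values below, and its part in them was not tested.

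IMD2 was the 1 gene of this pathway that differed at least 2-fold from wild type, and it did so in all 3 deletions. IMD2, an inducible IMP dehydrogenase, was at a level of 9.65 in wild type, 11.47 in sir2Δ, 11.61 in sir3Δ and 11.19 in sir4Δ. The wild type was low and the 3 deletions were high, with no deletion near the wild-type level, and all 4 values lay well above background. The differences were 1.82, 1.96 and 1.54, or 3.53-fold, 3.90-fold and 2.90-fold, with a mean of 1.77 or 3.42-fold. The deletions differed less among themselves than from wild type. sir3Δ exceeded sir4Δ by 0.43 and sir2Δ exceeded it by 0.28, while sir2Δ minus sir3Δ was -0.14.

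**Figure D1:**
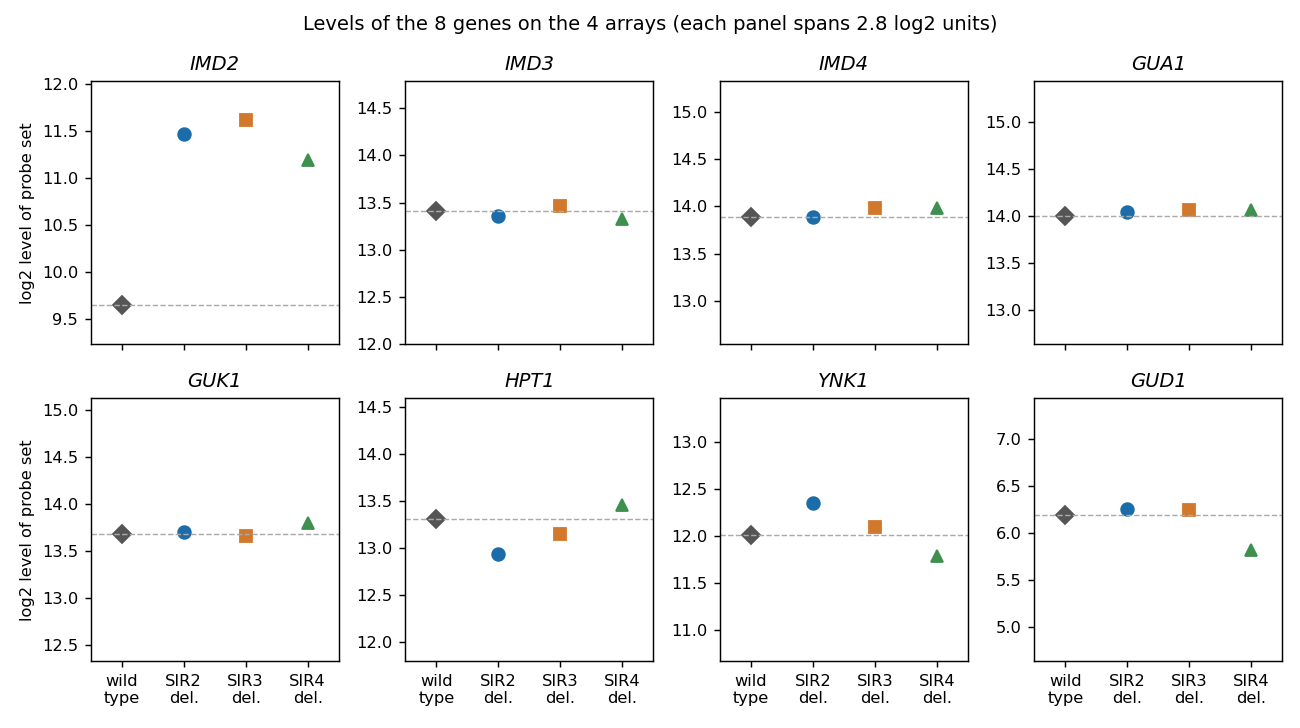
Log2 level of the probe set of each of the 8 genes (vertical axis, 2.8 log2 units in every panel) on the 4 arrays (horizontal axis), with 1 point per array and the wild-type level as a dashed line. IMD2 was at 9.65 in wild type and between 11.19 and 11.61 in the deletions, whereas the points of the other genes stayed within 0.57 of each other.

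Few genes were higher by 2-fold. In sir2Δ 1.45% of the 5449 genes were at least 2-fold higher, in sir3Δ 0.734% and in sir4Δ 0.349%, and 0.22% were higher in all 3. Of the 8 guanine nucleotide genes 1, IMD2, was higher in each deletion. In the opposite direction, 1.41%, 1.67% and 1.1% of all genes were at least 2-fold lower in sir2Δ, sir3Δ and sir4Δ and 0.771% in all 3, and 0 of the 8 were. In either direction 2.86% of all genes were called in sir2Δ, 2.4% in sir3Δ and 1.45% in sir4Δ. IMD2 held rank 19 in sir2Δ, rank 11 in sir3Δ and rank 9 in sir4Δ by size of increase. By the smallest of its 3 differences it held rank 8, after HMRA1, COS12, YFR057W, IME4, YGL262W, COS8 and YCR108C. HMRA1, the a1 gene of a silent mating locus, headed this order. In wild type the signals of YFR057W, YGL262W and HMRA1 did not exceed background, so their differences are less sure. With values raised to background IMD2 again held rank 8.

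**Figure D2:**
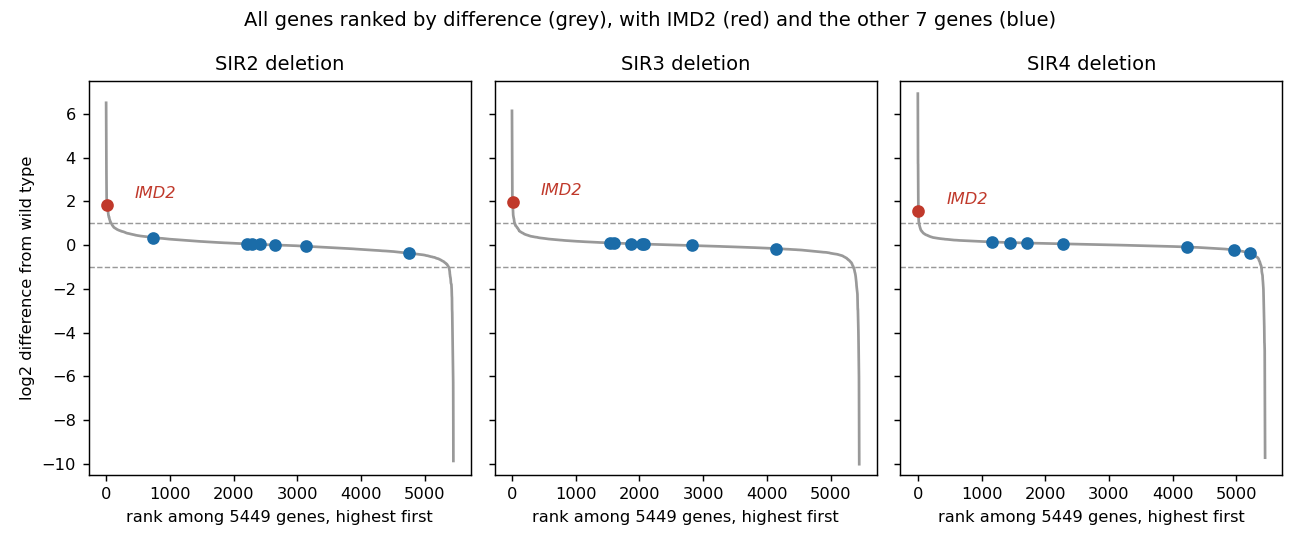
Log2 difference from wild type (vertical axis) of the 5449 genes ranked from highest to lowest (horizontal axis) in each deletion, with IMD2 in red, the other 7 genes in blue and the 2-fold limits dashed. IMD2 sits at ranks 19, 11 and 9 in sir2Δ, sir3Δ and sir4Δ, and the blue points lie between the limits, at differences from -0.38 to 0.34.

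The other IMP dehydrogenase genes measured were IMD3 and IMD4, and neither was called. IMD3 was at 13.41 in wild type, 13.36 in sir2Δ, 13.46 in sir3Δ and 13.32 in sir4Δ. The wild-type level lay within the range of the deletions, and the differences were -0.05, 0.05 and -0.09. IMD4 was at 13.88 in wild type and at 13.89, 13.98 and 13.98 in sir2Δ, sir3Δ and sir4Δ. Wild type was lowest for IMD4, but the whole range over the 4 arrays was 0.10, and 5036 of the 5449 genes had a wider one. The difference of IMD2 exceeded that of IMD3 by 1.88, 1.91 and 1.63 and that of IMD4 by 1.82, 1.86 and 1.44 in sir2Δ, sir3Δ and sir4Δ. The 3 genes thus changed unequally on the same arrays.

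The IMD2 probe set is of the class that can match more than 1 sequence, unlike those of the other 7 genes. No probe set carries the name of IMD1, a related sequence near another chromosome end, so a share of the IMD2 signal from similar sequences cannot be told apart. The arrays also carry probe sets for another yeast, among them one named gua1, the name of the IMP dehydrogenase gene in fission yeast. The gua1 probe set exceeded background on all 4 arrays, with 5.44 in wild type and 5.66, 5.49 and 5.37 in sir2Δ, sir3Δ and sir4Δ. Its differences were 0.21, 0.04 and -0.08, so it showed no rise of the size seen for IMD2. No RNA of that yeast was applied per the labels. Background is the 95th percentile of that yeast's probe sets, so by definition some exceed it and most do not. The probe sets of hpt1 and ndk1 of that yeast, by name the counterparts of HPT1 and YNK1, lay below background on all 4 arrays.

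None of the enzymes that act after IMP dehydrogenase was called in any deletion. GUA1, the GMP synthase, was at 14.00 in wild type and 14.05, 14.07 and 14.06 in sir2Δ, sir3Δ and sir4Δ. All 3 deletions were above wild type, by 0.05, 0.07 and 0.06, and the range over the 4 arrays, 0.065, was exceeded by 5254 of the 5449 genes. GUK1, the guanylate kinase that turns GMP into GDP, was at 13.68 in wild type and 13.71, 13.66 and 13.79 in the deletions. Its differences of 0.03, -0.02 and 0.12 straddled 0. YNK1, the nucleoside diphosphate kinase that makes GTP from GDP, was at 12.00 in wild type and at 12.35, 12.10 and 11.78 in sir2Δ, sir3Δ and sir4Δ. YNK1 was highest in sir2Δ and lowest in sir4Δ, with wild type between them, and sir2Δ exceeded sir4Δ by 0.57, the widest gap between deletions among the 8 genes.

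The genes of salvage and breakdown varied more than GUA1 and GUK1 but were not called. HPT1, the hypoxanthine and guanine phosphoribosyltransferase, which recovers bases as IMP and GMP, was at 13.30 in wild type and at 12.93, 13.15 and 13.45 in sir2Δ, sir3Δ and sir4Δ. It was lowest in sir2Δ and highest in sir4Δ, the reverse of YNK1. The differences from wild type were -0.37, -0.16 and 0.14, and sir2Δ minus sir4Δ was -0.52. GUD1, the guanine deaminase, which turns guanine into xanthine, was at 6.20 in wild type and at 6.25, 6.24 and 5.82 in the deletions. It was low in sir4Δ alone, by -0.38, a size exceeded by 8.13% of all genes there. GUD1 lay 1.54 to 1.93 above the background of its arrays. LEU2, inactivated in the BY4742 strain, exceeded the array background on every array too. Lying above background thus does not by itself show that GUD1 was expressed.

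**Figure D3:**
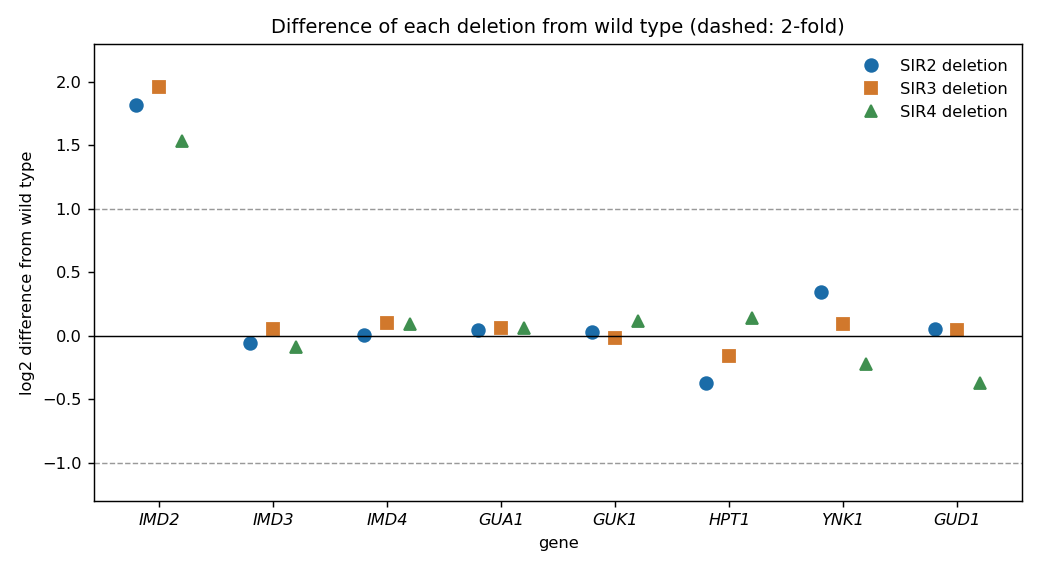
Log2 difference from wild type (vertical axis) of each of the 8 genes (horizontal axis) in sir2Δ, sir3Δ and sir4Δ, 1 point per array, with the 2-fold limits dashed. The IMD2 points lie at 1.82, 1.96 and 1.54, and the 21 points of the other genes lie between -0.38 and 0.34.

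Taken over the 7 genes other than IMD2, 14 of 21 differences were above 0 and 14 of 21 were within 0.1 of it. The largest in either direction, -0.38 for GUD1 in sir4Δ, corresponds to a 1.30-fold lower level. The median over the 7 was 0.03, 0.05 and 0.06 in sir2Δ, sir3Δ and sir4Δ, and the median over all 8 was 0.04, 0.06 and 0.08. Over all genes the median was 0.00, -0.01 and 0.03 in the same order. The absolute difference of all genes had a median of 0.20, 0.14 and 0.10, and 95% of genes stayed below 0.79, 0.69 and 0.49, so the 7 genes lay within the bulk of all genes in every deletion. Between the deletions, where the wild-type array plays no part, 1.05%, 1.65% and 1.27% of all genes differed at least 2-fold for sir2Δ against sir3Δ, sir2Δ against sir4Δ and sir3Δ against sir4Δ, and 0 of the 8 did.

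The genes beside IMD2 were examined because it lies near a chromosome end. In the order of genes in the R64 reference table, IMD2 is at place 3 from the right end of chromosome VIII. The genes beyond it, YHR218W and YHR219W, and PHO12 on its inner side had no probe set under their names. The nearest measured gene was YHR214C-E at place 5, with a level of 6.53 in wild type and 7.16, 6.61 and 6.80 in sir2Δ, sir3Δ and sir4Δ. All 3 deletions were above wild type for YHR214C-E, by 0.62, 0.08 and 0.27, but none by 2-fold. YHR214C-D at place 6 differed by -0.08, -0.57 and 0.12. YHR213W-A at place 11 was near background, with differences of 0.25, 0.47 and -0.35, and YHR213W and YHR212W-A, farther in, were below background on all 4 arrays. None of these 5 genes was called in any deletion, where 3.85% of all genes were called in at least 1.

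**Figure D4:**
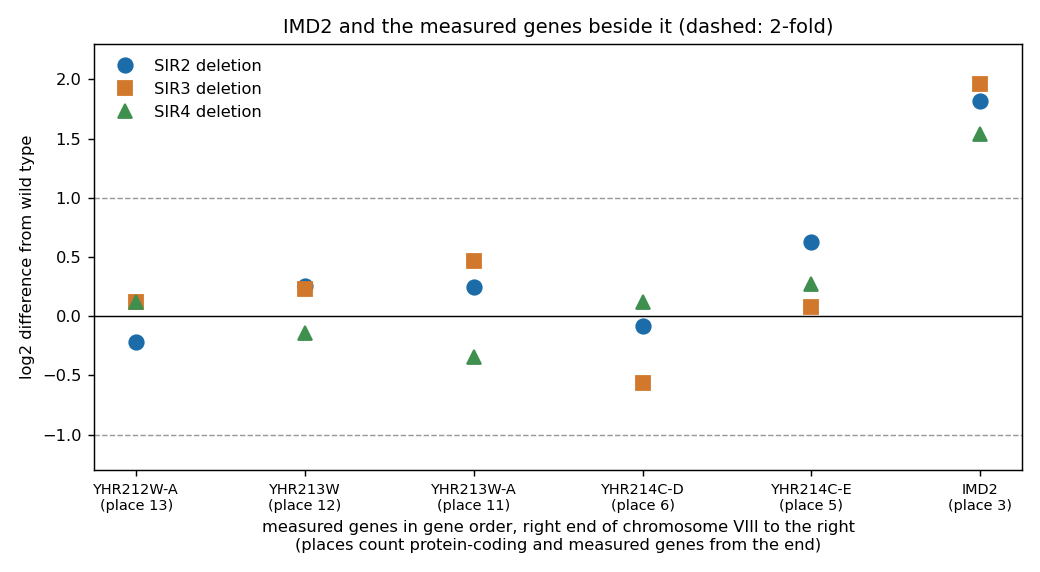
Log2 difference from wild type (vertical axis) of IMD2 and the 5 nearest measured genes in gene order at the right end of chromosome VIII (horizontal axis, chromosome end to the right), 1 point per deletion, with the 2-fold limits dashed. IMD2 lies above the limit at 1.54 to 1.96, and the points of the other 5 genes lie between -0.57 and 0.62.

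None of the genes flanking the other 7 members was called in any deletion, where 3.85% of all genes were called in at least 1. CNA1 and ATG23 flank IMD3, at -0.13, -0.33 and -0.11 and at -0.09, -0.10 and 0.01 in sir2Δ, sir3Δ and sir4Δ. CMP2 beside IMD4 differed by 0.50, 0.27 and 0.02, and SPC2 on its other side by 0.04, -0.06 and -0.0030. CNA1 and CMP2, which sit beside different IMP dehydrogenase genes, both encode catalytic subunits of calcineurin, a phosphatase. GUA1 lies between SKY1 and TRS130, GUK1 between TSA2 and NHX1, and YNK1 between NUP100 and YET1 among measured genes, and these 6 differed by -0.14 to 0.41. HPT1 lies between UTP5 and URH1. UTP5 had -0.33, 0.05 and 0.12, while URH1, a nucleoside hydrolase gene, had 0.50, -0.02 and 0.07. GUD1 is at place 11 from the left end of chromosome IV, with ADY3 at -0.09, -0.17 and 0.10 and AIM6 at 0.39, 0.11 and 0.09 beside it.

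The genes most like IMD2 were ranked by the largest of the 3 gaps between their differences and those of IMD2, which uses 3 values from 4 arrays. YDR034C-A, a gene without a standard name, was the nearest, with a largest gap of 0.30. Its level was 5.48 in wild type and 7.11, 7.14 and 6.75 in sir2Δ, sir3Δ and sir4Δ. Its order of strains was that of IMD2, which the choice by closeness favours. Of the genes below, HPF1 and CWP1 shared this order, and DDI3, COS7 and COS8 did not. HPF1, a cell wall mannoprotein gene, was next at a gap of 0.36, with differences of 1.64, 1.89 and 1.17. CWP1, another cell wall protein gene, had a gap of 0.49 and differences of 1.74, 2.01 and 1.04. DDI3, a cyanamide hydratase gene, had a gap of 0.59 and differences of 1.63, 1.37 and 1.37, from a probe set that can match several sequences. COS7 and COS8, of the COS family near chromosome ends, followed at gaps of 0.74 and 0.85, COS7 with 1.31, 1.22 and 0.91 and COS8 with 2.67, 2.53 and 2.25. The COS7 probe set can also match several sequences, and COS7 was not called in sir4Δ.

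The steps before IMP were examined next, since they feed guanine nucleotide synthesis. Over all genes 3.85% were called in at least 1 deletion, the share to set beside each list below. Of 14 genes of de novo purine synthesis 13 were measured, and none was called in any deletion. Their median differences were -0.08, 0.00 and 0.04 in sir2Δ, sir3Δ and sir4Δ. ADE1, which encodes SAICAR synthetase, had the lowest mean difference. It was at 12.56 in wild type and 11.92, 12.02 and 12.23 in the deletions, all 3 below wild type, by -0.65, -0.54 and -0.34. ADE16, a gene for the last steps to IMP, had the highest mean difference, with 0.24, 0.21 and -0.03. ADE5,7 was not measured under a name of its own.

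Of 12 genes of the adenine branch and of purine salvage none was called, with medians of 0.03, -0.01 and 0.08. MEU1, which acts in methionine salvage and releases adenine, was highest on average at 0.14, 0.06 and 0.15, and AAH1, the adenine deaminase, was lowest at -0.34, -0.25 and 0.09. XPT1, the xanthine phosphoribosyltransferase, gave 0.11, 0.04 and 0.04 and was picked out after its values were seen because it makes XMP, the product of IMP dehydrogenase. Of 8 genes of purine and nucleoside transport none was called, with medians of 0.13, 0.03 and 0.14. FUI1, the uridine permease, had 0.40, 0.41 and 0.14, and FUN26, an intracellular nucleoside transporter, 0.07, -0.21 and 0.06.

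Genes that use guanine nucleotides were not called either. Of 11 such genes the medians were 0.07, -0.02 and 0.05. RIB1, GTP cyclohydrolase II of riboflavin synthesis, was at 9.74 in wild type and 9.93, 10.16 and 9.96 in sir2Δ, sir3Δ and sir4Δ. It was higher in all 3, by 0.18, 0.42 and 0.22. RNR3, a ribonucleotide reductase subunit induced by DNA damage, had the lowest mean, with 0.27, -0.39 and -0.35. The transcription factors BAS1, PHO2 and GCN4 and 9 genes of one-carbon and histidine metabolism gave medians of -0.09, -0.01 and 0.10, with none of 12 called. GCV2, a glycine decarboxylase subunit, had 0.59, 0.45 and 0.12, and GCV1, another subunit of the same complex, -0.24, -0.31 and -0.14. Of 14 pyrimidine synthesis genes none was called, with medians of -0.08, 0.02 and 0.10. CDC21, the thymidylate synthase, had 0.64, 0.54 and 0.12, and URA10, a minor orotate phosphoribosyltransferase, -0.18, -0.62 and 0.04.

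Genes linked to IMD2 control were also measured. The list held 21 genes of start site choice, early termination, elongation or response to drugs that deplete nucleotides, and none was called. Its medians were -0.21, -0.10 and -0.01 in sir2Δ, sir3Δ and sir4Δ, against 0.00, -0.01 and 0.03 over all genes. NAB3, an RNA-binding protein of the pathway that ends the short IMD2 transcripts, had the highest mean, at 8.64 in wild type and 8.96, 8.98 and 8.59 in the deletions. It was above wild type in sir2Δ and sir3Δ, by 0.32 and 0.34, and at -0.05 in sir4Δ. Its partners NRD1 and SEN1 had -0.07, -0.39 and 0.07 and 0.03, 0.09 and 0.18. LEO1, of the Paf1 elongation complex, had the lowest mean, with -0.42, -0.20 and -0.14. DST1, the elongation factor TFIIS, whose loss blocks IMD2 induction by drugs, had -0.20, 0.09 and -0.01. NRD1, SEN1 and DST1 lie outside the rule for named genes and were picked out for their known roles with their values in view. Over these 7 lists of related genes 91 genes were measured, and 0 were called in any deletion, against 3.85% of all genes. At a 1.5-fold limit ADE1, ADE4, GCV2 and CDC21 passed in sir2Δ and URA10 in sir3Δ, with no other gene of these lists in any deletion.

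**Figure D5:**
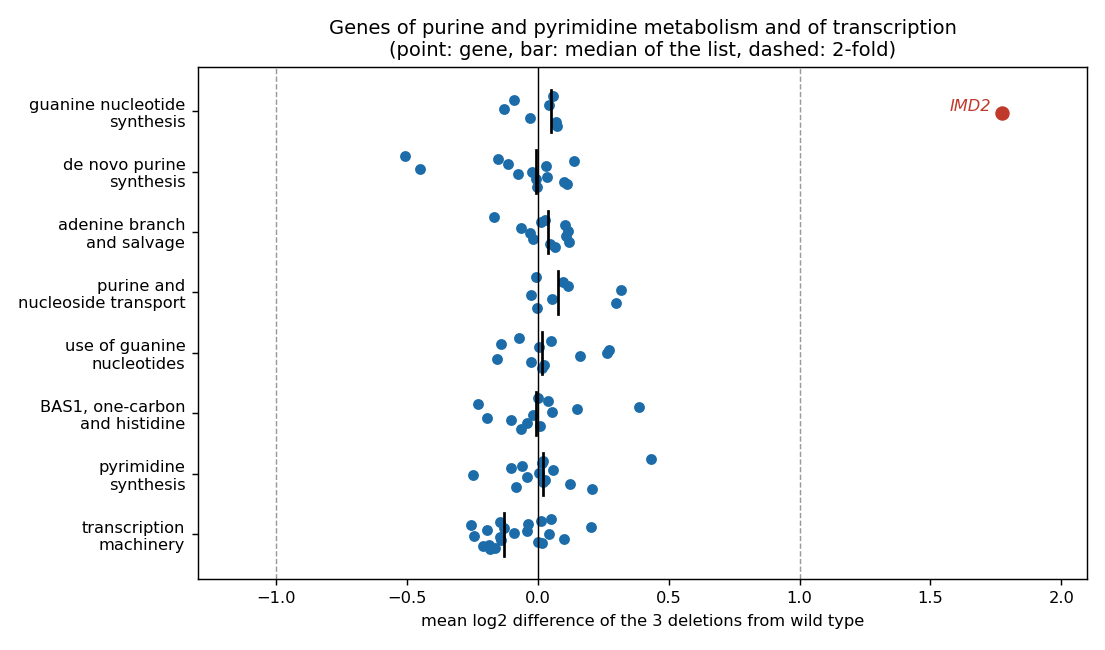
Mean log2 difference of the 3 deletions from wild type (horizontal axis) for the genes of guanine nucleotide synthesis and of 7 related lists (vertical axis), with 1 point per gene, a bar at the median of each list and the 2-fold limits dashed. IMD2 lies at 1.77, and the other 98 genes lie between -0.51 and 0.43.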

How the data were processed

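Total RNA (200 ng per sample) was labelled as biotin-cRNA, per the labels' protocols. The deposited values are log2 levels per probe set that the authors made with RMA, per the submitters' processing notes (version and settings not given in the sources used here). RMA equalises the distributions of the arrays, so a shift of all genes would not be seen.

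Each array held 10928 probe sets. The platform annotation, matched by gene identifier to the R64 table, gave 5498 probe sets of 5449 genes, and the brightest probe set stood for a gene. The 95th percentile of 1746 probe sets of another yeast gave the background. Differences were computed in Python 3.11.15 with pandas 2.3.3, and the scripts were tested on simulated data. There is 1 array per strain, so no test was run.

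The members and lists were chosen with earlier results of these data known. Named were the members, the 5 nearest measured genes on the inner side of IMD2 (none was measured beyond it), 1 gene on either side of the others, the 6 genes most like IMD2, strain checks, and from each list any called gene or else the highest and lowest mean. Alternatives changed the fold limit, scaling, background handling, probe set choice and deletions averaged. Beyond the choice of the brightest probe set and the background, levels of different probe sets were not compared.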

Additional observations from a re-analysis of the deposited data

Results flagged for a closer look

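Some probe sets outside the named genes were at least 2-fold higher in all 3 deletions than in wild type. Among the 5449 genes 12, or 0.22%, were so, and among 3470 probe sets that the annotation leaves without a gene name 4 were. Of these 4, the one nearest to IMD2 had levels of 7.47 in wild type and 9.54, 9.57 and 9.31 in sir2Δ, sir3Δ and sir4Δ. Its mean difference was 2.01, its largest gap to IMD2 was 0.30, and it is of a class shared between similar sequences. The mean differences of the other unnamed probe sets were 1.88, 2.12 and 3.22. Of 47 reporter probe sets 1 was higher in all 3 deletions, at 2.96 in wild type and 14.59, 14.60 and 14.60 in the deletions, a mean difference of 11.63. With 1 array per strain, there was no group to search for a sample far from the others.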

How the results depend on the processing

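The IMD2 differences kept their direction and stayed past 2-fold under 5 settings that rescaled or refiltered the values. They ranged from 1.82 to 1.86 in sir2Δ, 1.96 to 1.98 in sir3Δ and 1.54 to 1.54 in sir4Δ. The rank of 8 did not move. Of these settings, only median centring and repeated quantile normalization could shift a member value. The settings on background and on averaging probe sets could not, since each member has 1 probe set, above background on all 4 arrays. Leaving out sir2Δ, sir3Δ or sir4Δ gave mean IMD2 differences of 1.75, 1.68 and 1.89. Leaving out probe sets that can match several sequences removes IMD2 itself, so that 0 members are then called in each deletion. At a 3-fold limit IMD2 was called in sir2Δ and sir3Δ and 0 members in sir4Δ. Over all genes, 1.5-fold limits gave 295 higher and 276 lower in sir2Δ, 148 and 206 in sir3Δ, 77 and 114 in sir4Δ, and 34 higher and 76 lower in all 3. At 3-fold the counts were 28 and 43, 15 and 50, and 8 and 37, with 7 higher in all 3. In the related lists 1.5-fold limits gave 2 genes of de novo purine synthesis, 1 of the BAS1 list and 1 of pyrimidine synthesis in sir2Δ, and 1 of pyrimidine synthesis in sir3Δ. Repeating the quantile normalization moved GUD1 in sir3Δ from 0.05 to 0.22. Sign changes of member values numbered 4, all under median centring or repeated quantile normalization. They were in values within 0.06 of 0, in IMD4, GUK1 and GUD1. The 160 values compared include those under the settings that could not change them. Ranking likeness to IMD2 by correlation over the 4 arrays kept 4 of the 6 genes. No paired analysis was possible because each group holds 1 array. The single wild-type array and the lack of replicates limit every value.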

Other observations

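Of the 91 genes of the related lists 25, or 27.5%, had a sign in sir4Δ opposite to that in both other deletions, against 27.6% of all genes, so this share is that of the background. None reached 2-fold, and the genes named here were picked out after their values were seen. SDT1, a pyrimidine nucleotidase gene known for resistance to 6-azauracil, was at 11.36 in wild type and at 10.91, 10.88 and 11.84 in sir2Δ, sir3Δ and sir4Δ, which gives -0.45, -0.48 and 0.49. GGC1, the mitochondrial carrier that exchanges GTP and GDP, was at 12.30 in wild type and at 11.82, 12.02 and 12.63, which gives -0.48, -0.28 and 0.33. HIS5 of histidine synthesis had -0.48, -0.27 and 0.17. ADE4, the first enzyme of purine synthesis, was instead below wild type in all 3 deletions, by -0.70, -0.41 and -0.25. These are single arrays, and no test was possible.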
